A study of Mus musculus with 22 samples.

Results

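The expression of 10 genes of the unfolded protein response and the integrated stress response was examined in CD11b+ cells from neonatal mouse brain. The genes were Atf4, Atf5, Ddit3, Trib3, Chac1, Asns, Sesn2, Hspa5, Xbp1 and Herpud1. They were taken by name, by a rule that uses no measured value but with earlier results of these data known, and all 10 were found among the 56691 genes listed in both batch files. All 10 also passed the filter on low counts in every comparison.

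When unfolded proteins collect in the endoplasmic reticulum (ER), the sensors PERK, IRE1 and ATF6 start the unfolded protein response. PERK and related kinases that sense amino acid shortage, heme shortage or double-stranded RNA phosphorylate the translation factor eIF2. This slows protein synthesis and favors translation of ATF4, and the program that follows is called the integrated stress response. ATF4 is controlled largely at translation, IRE1 acts on Xbp1 by splicing its mRNA, and PERK and IRE1 act by phosphorylation, so gene counts do not measure these steps. Cells of the myeloid lineage, microglia included, use the same pathways when they secrete much protein or face low oxygen or inflammatory signals.

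Every animal was a wildtype CF-1 mouse. HIE stands for a model in which dams were given LPS, a bacterial product that provokes inflammation, on embryonic day 18 and their offspring were placed in hypoxia on P6. Control litters had saline and normal oxygen instead, according to the study's methods. On P7, 1 day after hypoxia, the HIE and control groups held 4 pups each. On P14, 8 days after hypoxia, HIE, control and a group named Hypoxia held 4 mice each. The Hypoxia group is named in the labels only, so whether its dams received LPS or saline is not given in the sources used here. The P7 controls came from litters P6H63 and P6H55, with 2 pups each, and the P7 HIE pups from litters N5 and N8. The labels give the P7 controls the days P8 to P11, whereas the methods give P7, which is used here. All P7 HIE pups were labelled male, and every other group had 2 males and 2 females. On P14 the names of HIE and control animals began with P4H or P6H, 2 animals of each group, and all Hypoxia animals were P6H. The labels do not define these prefixes. By their names the P14 animals came from litters P4H1 and P6H12 in HIE, P4H4 and P6H8 in control and P6H7 and P6H9 in Hypoxia, 2 animals each. No litter held animals of more than 1 group, so treatment and litter cannot be told apart, and within a prefix 1 HIE litter is set against 1 control litter. Each day is 1 batch file, so day and batch cannot be told apart.

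Total expected counts per library ranged from 70191584 to 83469067 on P7 and from 29751540 to 46404123 on P14, where 2 HIE animals had 2 libraries each that were summed. The CD11b label was checked against 17 microglia markers, 16 of which were in the files and above 3 counts in every group. Their summed level was 1574 and 2453 CPM (counts-per-million, on TMM-scaled library sizes within each day) in the 2 P6H63 controls, 15418 and 17338 CPM in the 2 P6H55 controls, 19396 to 21964 CPM in the P7 HIE pups and 18433 to 31241 CPM on P14. The P6H63 libraries therefore stood apart from the other animals before any stress gene was considered, and the members' P7 results, with those of the most abundant pathway genes, are given with and without them. In bulk samples, fewer cells of a type and less RNA per cell cannot be told apart. The labels do not say that animals of a litter are independent, so p-values measure the spread between these animals.

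Short sequences around annotated transcription starts were searched for the DNA elements known from these pathways. All 10 members had an entry among the RefSeq promoter windows (table build GRCm38.p6, 250 bases before to 50 after the start, 11 windows for the members), which were located on GRCm39 by exact match. The C/EBP-ATF composite element, bound by ATF4 and CHOP with their partners, was searched as TGATGNAA on both strands. It was in the windows of Asns, Chac1, Herpud1 and Trib3, 4 of 10 members, and in 3.97% of all 32851 RefSeq windows. In windows of the same length around 21738 canonical GENCODE starts it was in Chac1, Ddit3 and Herpud1 and in 3.85% of windows. The match in Trib3 lay after the start and is not printed. The match in Asns lay upstream of its RefSeq start but after its canonical GENCODE start at 7693719. Each run is given 5′ to 3′ on the gene's strand, with the element in capitals on whichever strand it was found:
Ddit3, chr10:127126350-127126379, plus strand: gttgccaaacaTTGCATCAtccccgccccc
Chac1, chr2:119181519-119181548, plus strand: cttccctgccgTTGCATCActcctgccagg
Asns, chr6:7693214-7693243, minus strand: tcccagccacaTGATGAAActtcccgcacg
Herpud1, chr8:95112934-95112963, plus strand: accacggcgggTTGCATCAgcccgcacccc

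The ER stress response element, through which ATF6 with NF-Y acts on chaperone genes, was searched as CCAAT and CCACG with 9 bases of any kind between them, and its variant II as ATTGG and CCACG with 1 base between them, both on either strand. The first was found in Hspa5 alone among the members and in 0.119% of RefSeq windows, and the second in Herpud1 alone and in 0.037% of RefSeq windows. The words TGACGTGG and TGACGTCA, which fit XBP1 or ATF6 and the cAMP response element, were in no member window and in 0.676% and 1.79% of all RefSeq windows. A match describes letters only, and no match says only that these letters are not in the window. The 2 matches are printed with the element in capitals:
Hspa5, chr2:34662032-34662060, plus strand: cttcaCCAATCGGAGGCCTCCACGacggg
Herpud1, chr8:95112996-95113024, plus strand: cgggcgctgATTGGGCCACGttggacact

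Levels were compared between genes per kilobase of the canonical transcript. Hspa5, which encodes the ER chaperone BiP, was the highest of the 10 in every group, with group means of 116 to 137 CPM per kilobase. Atf4 followed with 60.7 to 92.5 CPM per kilobase, then Xbp1 with 41.5 to 58.8 and Herpud1 with 19.0 to 31.9 CPM per kilobase. Trib3 and Chac1 were the lowest, with means of 0.126 to 0.613 CPM per kilobase. Several members overlap a neighboring gene, such as Ddit3 with Mars1 and Mbd6, Atf5 with Il4i1 and Nup62, Hspa5 with Rabepk and Xbp1 with Ccdc117, and the strand setting of the counting is not given in the sources used here, so reads in the shared stretches are uncertain. The order given above held in the means of all 5 groups, whereas the animals of neighbors overlapped for Hspa5 and Atf4 and from Herpud1 through Atf5 and Ddit3 to Sesn2 in the P7 controls, for Atf4 and Xbp1 in the P14 HIE group, for Sesn2 and Atf5 in every P14 group, and for Trib3 and Chac1 in every group. Atf5 had a higher mean than Ddit3 in the P7 controls, at 13.2 ± 3.12 CPM per kilobase (SD, n = 4), which rests on the P6H63 pups: the P6H55 pups had 9.75 and 11.3 CPM per kilobase of Atf5 and 14.1 and 19.3 of Ddit3. In the P7 HIE pups Atf5 was below Ddit3, and in each P14 group it was below both Ddit3 and Sesn2, with means of 3.92 to 4.82 CPM per kilobase.

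**Figure D1:**
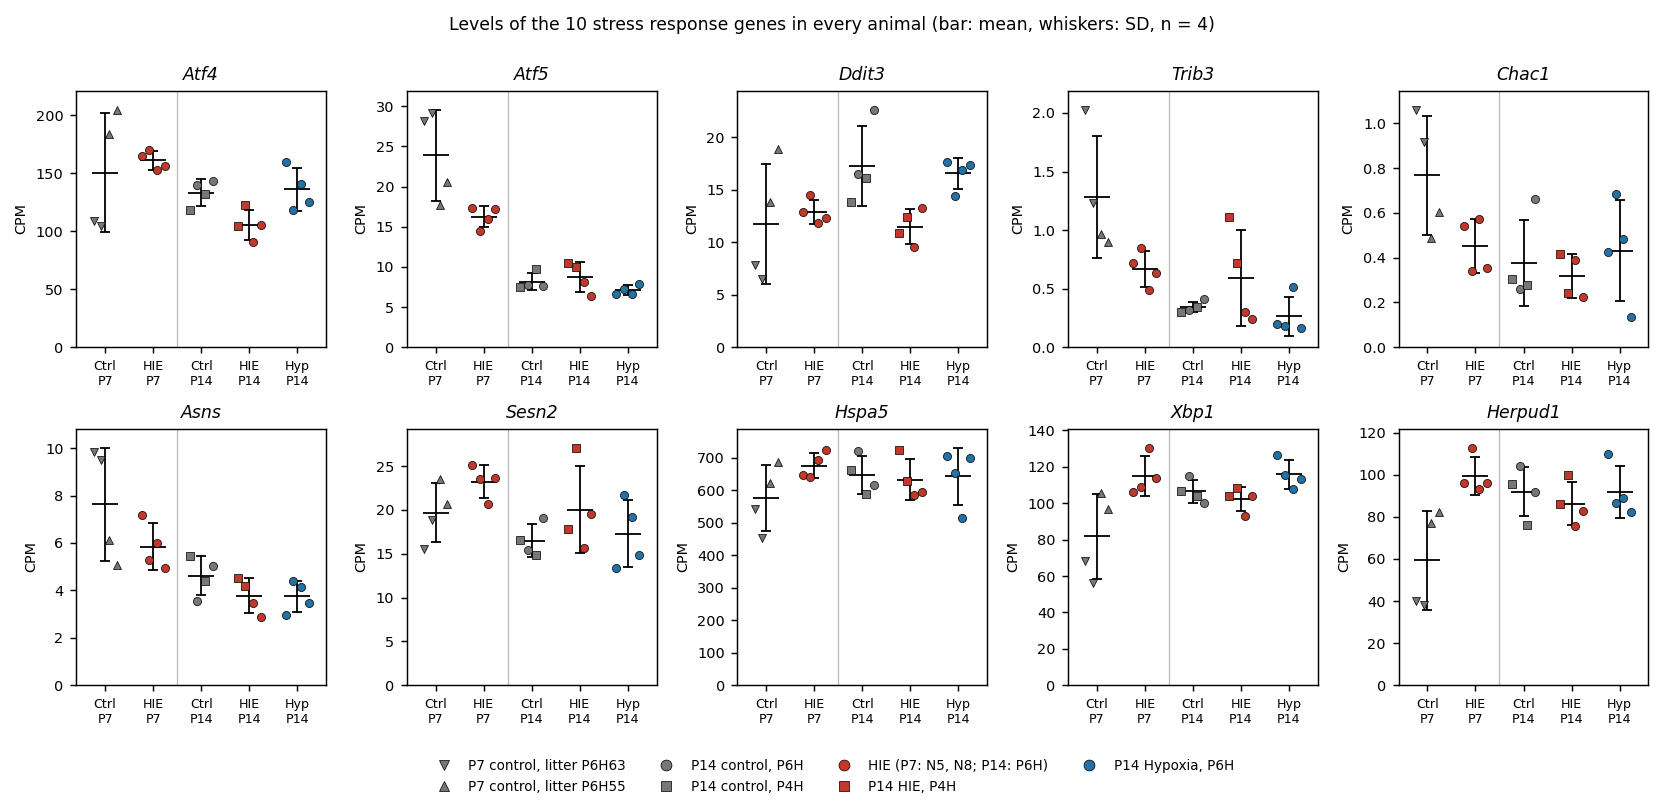
CPM of each of the 10 genes (vertical axis, from 0) in every animal of the 5 groups (horizontal axis), with the mean and SD of 4 animals; the P7 and P14 tables were normalized separately. Triangles mark the 2 P7 control litters, squares the P4H animals and circles all others. The P6H63 controls lie apart from the P6H55 controls in most panels, and the 4 P14 HIE animals lie below the other P14 animals for Ddit3.

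The members also differed in how much they varied. Across the 10 genes, the median coefficient of variation was 32.7% in the P7 controls and 9.02% in the P7 HIE pups, against 13.02%, 17.0% and 13.6% in the P14 control, HIE and Hypoxia groups. The P7 controls hold both litters that stand apart from each other: for Atf4 the coefficient was 34.1% over the P7 controls, whose litters were at 109 and 104 CPM (P6H63) and 183 and 205 CPM (P6H55), and 4.91% in the P7 HIE pups. Trib3 and Chac1 rested on few reads on P14, with 6 to 51 and 5 to 26 counts per animal.

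The P7 comparison asks how expression differed 1 day after hypoxia. Herpud1 and Xbp1 were higher and Atf5 and Trib3 lower in all 4 HIE pups than in all 4 controls, with differences of 1 log2 unit or less. On CPM from total counts without TMM factors, added after the data were seen, the groups overlapped for Xbp1 and stayed apart for the other 3. The share of all genes that stayed apart on total-count CPM was not counted. None of the 10 genes passed an adjusted p-value of 0.05 in edgeR's quasi-likelihood test, which called 15 of 22517 genes (0.0666%). Of the 10, 5 had an unadjusted p-value under 0.05, against 6143 (27.3%) of all genes tested. DESeq2 called 2, Atf5 and Trib3, both lower, where it called 13.4% of all genes and 9.1% as lower. The median log2 difference over all genes was -0.08, and -0.29 when only library size was scaled, so small differences depend on the scaling.

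Among the transcription factors, Atf4 was 109, 104, 183 and 205 CPM in the controls (P6H63 pups first) and 165, 170, 153 and 157 CPM in HIE. The control litters lay on either side of the HIE pups. The log2 difference was 0.10 ± 0.23 (SE), with an adjusted p of 0.785 in edgeR's test. Ddit3, which encodes the pro-apoptotic factor CHOP, was 7.79, 6.49, 13.8 and 18.9 CPM in the controls and 12.9, 14.5, 11.8 and 12.3 CPM in HIE. Both P6H63 pups were below all HIE pups, whereas 1 P6H55 pup lay within the HIE range and the other above it. The log2 difference was 0.13 ± 0.32, with an adjusted p of 0.792 in edgeR's test. Both signs flipped when only library size was scaled (-0.06 and -0.01).

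Atf5, an ATF4 relative linked to mitochondrial stress, was 28.2, 29.2, 17.7 and 20.5 CPM in the controls and 17.4, 14.5, 16.0 and 17.2 CPM in HIE. Every HIE pup was below every control, by a narrow margin against P6H55. The log2 difference was -0.56 ± 0.18, with an adjusted p of 0.150 in edgeR's test and 0.0496 in DESeq2. Groups that did not overlap in this direction made up 8.47% of all genes tested.

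Of the genes that ATF4 and CHOP activate, Trib3, a pseudokinase that restrains ATF4 and AKT, was 2.03, 1.23, 0.965 and 0.901 CPM in the controls and 0.717, 0.846, 0.485 and 0.630 CPM in HIE. The groups did not overlap, and the highest value was that of 1 P6H63 pup. Its log2 difference was -0.94 ± 0.32, with an adjusted p of 0.151 in edgeR's test and 0.04997 in DESeq2. Chac1, which degrades glutathione, ranged from 0.490 to 1.06 CPM in the controls and from 0.341 to 0.571 CPM in HIE (log2 difference -0.77 ± 0.33). Asns, asparagine synthetase, ranged from 5.08 to 9.83 CPM and from 4.95 to 7.17 CPM (-0.39 ± 0.25). Sesn2, which lowers mTORC1 activity, ranged from 15.5 to 23.5 CPM and from 20.7 to 25.1 CPM (0.24 ± 0.14). These 3 genes overlapped between the groups, and their adjusted p-values in edgeR's test were 0.181, 0.309 and 0.269.

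Of the ER genes, Herpud1, which helps to clear misfolded proteins from the ER membrane, was 39.9, 38.1, 77.1 and 82.2 CPM in the controls and 96.1, 113, 93.2 and 96.1 CPM in HIE. The 4 HIE pups were above all controls, most clearly above P6H63. Its log2 difference was 0.75 ± 0.27, with an adjusted p of 0.154 in edgeR's test and 0.0608 in DESeq2. Xbp1, the transcription factor that IRE1 activates, was 68.0, 56.2, 106 and 96.9 CPM in the controls and 106, 109, 131 and 114 CPM in HIE. It did not overlap either, although the highest control and the lowest HIE pup were nearly equal, and on total-count CPM it did, with 65.2 to 102 CPM in the controls and 100.05 to 124 CPM in HIE. The log2 difference was 0.49 ± 0.20, with an adjusted p of 0.171 in edgeR's test. Groups with all HIE pups above all controls made up 8.5% of all genes. Hspa5 ranged from 452 to 689 CPM in the controls and from 640 to 723 CPM in HIE, with a log2 difference of 0.23 ± 0.15 and an adjusted p of 0.330 in edgeR's test.

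The values depended on the litter of the controls. Against the 2 P6H63 pups alone, all 10 members passed in edgeR's test, in a fit that called 13904 of 23780 genes (58.5%). Herpud1, Xbp1, Ddit3, Atf4, Hspa5 and Sesn2 rose in HIE, with log2 differences of 1.39 ± 0.09, 0.92 ± 0.11, 0.89 ± 0.13, 0.63 ± 0.06, 0.48 ± 0.10 and 0.47 ± 0.11. Trib3, Chac1, Atf5 and Asns fell in HIE, with log2 differences of -1.25 ± 0.30, -1.10 ± 0.30, -0.79 ± 0.09 and -0.69 ± 0.16. The adjusted p-values of edgeR's test ran from 1.8e-05 for Herpud1 to 0.0149 for Chac1.

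Against the 2 P6H55 pups alone, no member passed in edgeR's test, which called 26 of 23274 genes (0.112%). Compared with the fit on all 4 controls, Atf4, Ddit3 and Asns had the opposite sign, with log2 differences of -0.26 ± 0.07, -0.33 ± 0.14 and 0.07 ± 0.19 (adjusted p = 0.214 and 0.298 for the first 2 in edgeR's test). Herpud1 kept its direction at 0.33 ± 0.09 (adjusted p = 0.207), as did Xbp1 at 0.19 ± 0.10 and Atf5 at -0.23 ± 0.11. Trib3 and Chac1 were at -0.47 ± 0.28 and -0.27 ± 0.34. Hspa5 and Sesn2 were at 0.05 ± 0.09 and 0.08 ± 0.10. Without the P6H55 pup that is control replicate 3, edgeR's test called Atf5 (-0.66, adjusted p = 0.0337) and Xbp1 (0.66, adjusted p = 0.0454), in a fit that called 24.2% of all genes.

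**Figure D2:**
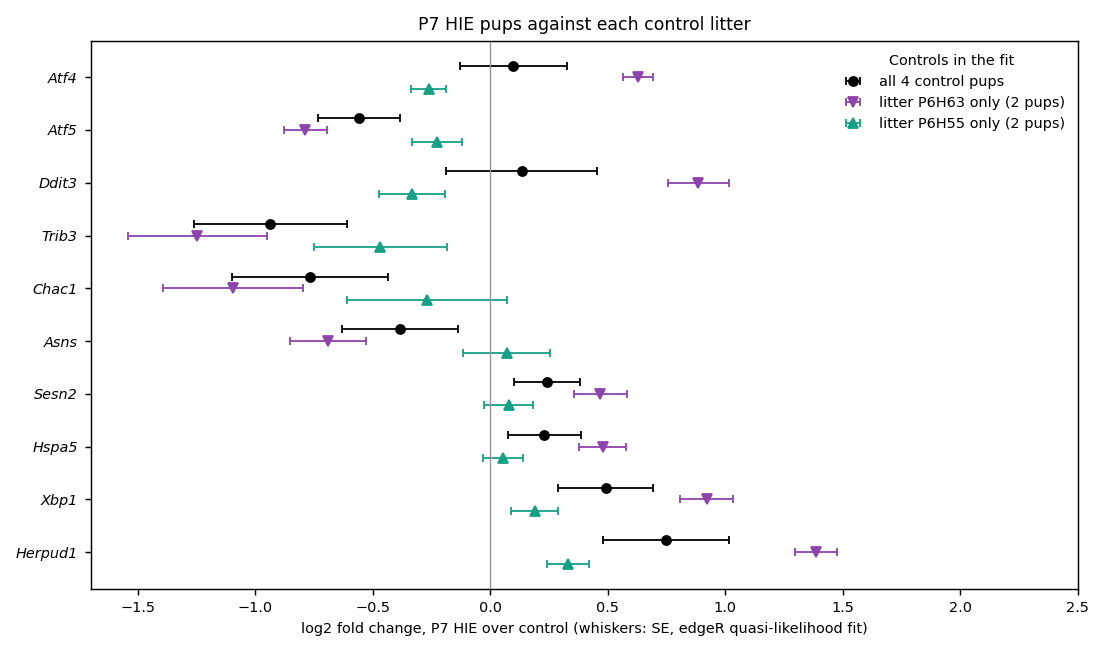
Log2 fold change of P7 HIE over control (horizontal axis, SE as whiskers) for the 10 genes (vertical axis), fitted against all 4 control pups, the 2 P6H63 pups or the 2 P6H55 pups. Herpud1 lies at 1.39 against P6H63 and 0.33 against P6H55, and Atf4, Ddit3 and Asns lie on opposite sides of 0 against the 2 litters.

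On TMM-scaled CPM, the control litters thus differed from each other in the members. Atf4, Ddit3, Xbp1, Hspa5, Herpud1 and Sesn2 were lower in both P6H63 pups than in both P6H55 pups, and Atf5, Trib3, Chac1 and Asns were higher. On total-count CPM the litters overlapped for Hspa5 and Sesn2. For Hspa5, 1 P6H63 pup had 46004 of 70191584 counts and 1 P6H55 pup 43254 of 72133891. The TMM factors were 1.21 and 1.16 in P6H63 and 0.963 and 0.972 in P6H55. How many of all genes separated these litters was not counted, so these separations cannot be read as particular to the members. With 2 pups in each litter, the difference between the litters was described and not tested. Other levels moved with it. Summed endothelial markers were 1507 and 1908 CPM in P6H63 against 809 and 822 CPM in P6H55 and 572 to 746 CPM in HIE. Summed astrocyte markers were 2430 and 3110 CPM in P6H63 against 988 and 1378 CPM in P6H55 and 838 to 1084 CPM in HIE. Neuron markers were 590 and 769 CPM in P6H63 against 291 and 394 CPM in P6H55 and 287 to 382 CPM in HIE. Choroid plexus markers were 4051 to 10355 CPM in the 4 controls and 1401 to 2528 CPM in HIE, so both control litters were above the HIE pups. Neutrophil and monocyte markers were 17.6 and 19.1 CPM in P6H63 against 64.5 to 170 CPM in the others. Immediate early genes, which respond within minutes to stimulation and tissue handling, summed to 6327 and 7789 CPM in P6H63 against 19891 to 23508 CPM in the others. The part of these levels in the members' differences was not tested by itself. With the mean log2 level of the microglia markers as a covariate, Atf4, Ddit3 and Asns changed sign (-0.35, -0.47 and 0.12), Herpud1 was at 0.22 ± 0.09 and Xbp1 at 0.11 ± 0.10, and no member passed in a fit that called 19 of 22517 genes (0.0844%).

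**Figure D3:**
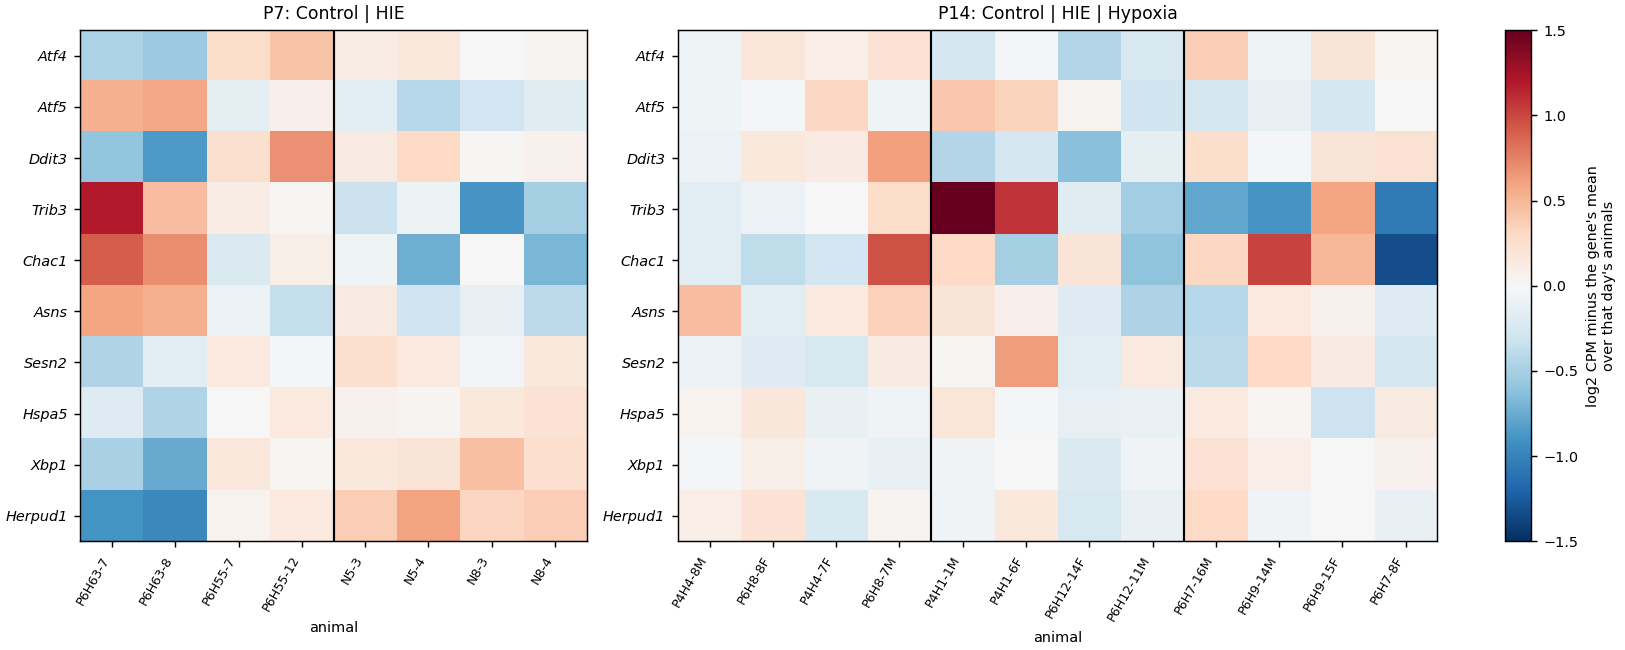
Log2 CPM of each gene in each animal minus the gene's mean over the animals of that day (color, log2 units), for P7 (left, 8 animals) and P14 (right, 12 animals), with groups separated by black lines. The P6H63 pups show the widest departures on P7, and Trib3 and Chac1 vary most on P14.

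The rest of the pathway was read from 8 lists of 102 genes, 101 of which were tested on P7. Unless a control litter is named, values are against all 4 controls. No gene of these lists passed in edgeR's test, and 31 of the 101 had an unadjusted p under 0.05, near the share of 27.3% over all genes. DESeq2 called 13 higher and 4 lower in HIE, where it called 4.33% of all genes as higher and 9.1% as lower. All 10 genes of the list of stress sensors and eIF2 control were above 0, with a median log2 difference of 0.29 beside -0.08 over all genes. Ppp1r15a encodes GADD34, the stress-induced subunit of the eIF2 phosphatase. Ppp1r15a was 282 ± 22.9 CPM (SD, n = 4) in HIE and 180 ± 91.8 CPM in the controls (log2 difference 0.64 ± 0.35, adjusted p = 0.243 in edgeR's test). Its constitutive counterpart Ppp1r15b was 220 ± 4.08 and 178 ± 44.5 CPM (0.31 ± 0.18).

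Among 14 other ATF4 and CHOP program genes tested, the median log2 difference was 0.26, and 6 of the 14 were below 0. Atf3, a stress-induced repressor, was 568 ± 75.4 CPM in HIE and 209 ± 143 CPM in the controls. Its log2 difference was 1.44 ± 0.50, with an adjusted p of 0.151 in edgeR's test and 0.0385 in DESeq2. Cebpb, a partner in the composite element, was 157 ± 22.4 and 76.9 ± 47.3 CPM (1.03 ± 0.44). DESeq2 also called Gdf15, a secreted stress cytokine, as higher and the lipoprotein receptor Vldlr as lower, both named after their values were seen. Genes for serine, one-carbon and amino acid supply went the other way in 12 of 16 cases, with a median of -0.29. The amino acid transporters Slc38a2 and Slc7a1 were at -0.37 ± 0.16 and -0.78 ± 0.34, and DESeq2 called Cth and Slc7a11 lower and Pck2 higher. Aminoacyl-tRNA synthetases had a median of 0.11, with Eprs1 at 0.13 ± 0.11 and Aars1 at 0.16 ± 0.17.

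ER chaperones and folding enzymes were above 0 for 12 of 15 genes, with a median of 0.18. DESeq2 called 5 of them as higher (Hsp90b1, Hyou1, Manf, Pdia3 and Pdia6, named after their values were seen). Hsp90b1, the ER form of HSP90, was 803 ± 41.2 CPM in HIE and 603 ± 102 CPM in the controls (0.42 ± 0.15, adjusted p = 0.154 in edgeR's test and 0.0341 in DESeq2), and the lectin chaperone Canx was 801 ± 12.4 and 638 ± 154 CPM (0.33 ± 0.18). Of the ER-associated degradation genes, 13 of 14 were above 0, with a median of 0.23. Edem1, which takes misfolded glycoproteins to degradation, was 479 ± 22.9 and 235 ± 160 CPM (1.03 ± 0.49, adjusted p = 0.203), and the ATPase Vcp was 228 ± 4.81 and 207 ± 12.6 CPM. For ER entry and early secretion the median was 0.07, with Ssr3 at 0.03 ± 0.09 and Sec61a1 at 0.19 ± 0.10. For mitochondrial chaperones and proteases it was 0.05, with Hspa9 at 0.04 ± 0.09 and Hspd1 at 0.06 ± 0.09. Cytosolic heat shock genes, given for comparison, had a median of -0.27, and immediate early genes one of 0.69 with all 14 above 0.

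The lists shared the split between control litters. The other ATF4 and CHOP program genes summed to 404 and 409 CPM in P6H63, 706 and 731 CPM in P6H55 and 899 to 1083 CPM in HIE. ER-associated degradation genes summed to 1150 and 1161 CPM, 1788 and 1819 CPM, and 1938 to 2017 CPM. ER chaperones summed to 2919 and 3115 CPM, 3721 and 3871 CPM, and 4042 to 4321 CPM. Stress sensors and eIF2 control summed to 541 and 564 CPM, 911 and 913 CPM, and 935 to 998 CPM. ER entry and early secretion summed to 1088 and 1132 CPM, 1223 and 1251 CPM, and 1254 to 1316 CPM. In each of these sums, on TMM-scaled CPM, the HIE pups were above both control litters, by a narrow margin for ER entry and for stress sensors. The sums were not computed on total-count CPM, so narrow margins may depend on the scaling. Mitochondrial chaperones and proteases summed to 549 and 560 CPM in P6H63, while P6H55 with 600 and 628 CPM overlapped HIE with 589 to 625 CPM. The 10 members summed to 717 and 824 CPM in P6H63, while P6H55 with 1052 and 1139 CPM overlapped HIE with 1079 to 1148 CPM. The sum of the ATF4 and CHOP list was led by Atf3 and Cebpb, whose values are given above. Aminoacyl-tRNA synthetases summed to 776 and 787 CPM in P6H63, 1012 and 1016 CPM in P6H55 and 948 to 1011 CPM in HIE, below P6H55. Amino acid supply genes summed to 2448 and 2740 CPM in P6H63, while P6H55 with 1642 and 1764 CPM overlapped HIE with 1560 to 1770 CPM.

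The fits of the pathway genes differed with the control litter in the same way. Against P6H63 alone, edgeR's test called 61 of the 101 genes higher and 17 lower in HIE, in the fit that called 58.5% of all genes, and against P6H55 alone it called none of the 101. Atf3 was at 2.78 ± 0.19 against P6H63 and at 0.78 ± 0.13 against P6H55 (adjusted p = 0.128 in edgeR's test for the latter). The same pair of values was 2.15 ± 0.19 and 0.42 ± 0.13 for Cebpb, 2.32 ± 0.19 and 0.38 ± 0.09 for Edem1, and 0.67 ± 0.08 and 0.23 ± 0.08 for Hsp90b1. For Ppp1r15a it was 1.49 ± 0.11 and 0.13 ± 0.10, and for Canx 0.70 ± 0.07 and 0.06 ± 0.07. Slc7a1 was at -1.23 ± 0.16 and -0.04 ± 0.14, and Aars1 changed sign, from 0.53 ± 0.06 to -0.11 ± 0.06. Of the 101 genes, 70 were above 0 against all controls, 74 against P6H63 and 59 against P6H55. With P6H55 as the only controls, the list medians were 0.155 for ER chaperones, 0.13 for other ATF4 and CHOP program genes and 0.08 for stress sensors. They were 0.08 for ER-associated degradation, 0.04 for ER entry and -0.04 for amino acid supply. Aminoacyl-tRNA synthetases and mitochondrial chaperones changed sign, to medians of -0.03 and -0.06. The median over all genes in that fit was -0.02.

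**Figure D4:**
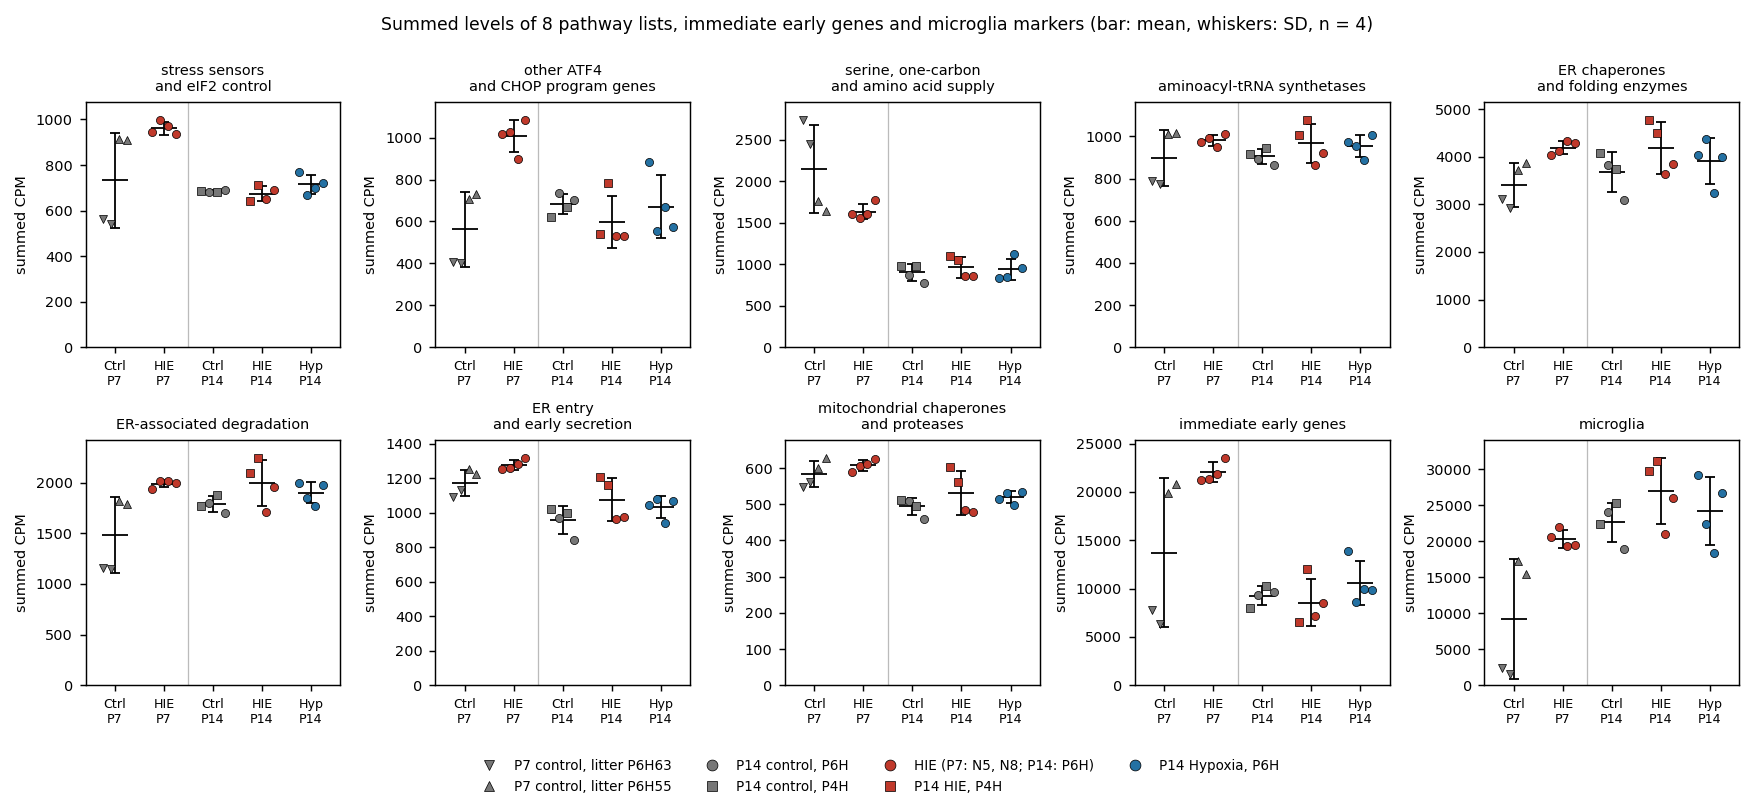
Summed CPM (vertical axis, from 0) of the 8 pathway lists, the immediate early genes and the microglia markers in every animal of the 5 groups (horizontal axis), with the mean and SD of 4 animals and the symbols of the plot of member levels. On P7 the P6H63 pups stand apart in each panel, as in the microglia markers with 1574 and 2453 CPM.

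The P14 comparisons ask what remained 8 days after hypoxia, and they share animals: the controls enter the HIE and the Hypoxia comparison, and the HIE group is also set against Hypoxia. Ddit3 and Atf4 were the members with the lowest p-values, both lower in HIE. No member passed in edgeR's test for HIE against control, which called 1 of 20934 genes (0.00478%), 2 members and 2066 genes in all (9.87%) had an unadjusted p under 0.05, and DESeq2 called none of the members and 2.34% of all genes. No member passed for HIE against Hypoxia either, where edgeR's test called 0.00955% of genes, 2 members and 948 of 20949 genes (4.53%) had an unadjusted p under 0.05, and DESeq2 called none of the members and 0.0716% of genes.

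Ddit3 was 13.8, 16.5, 16.1 and 22.7 CPM in the P14 controls, 10.9, 12.4, 9.51 and 13.3 CPM in HIE, and 17.7, 14.4, 16.9 and 17.3 CPM in Hypoxia. All HIE animals were below all animals of both other groups, which overlapped each other. Groups with all HIE animals below made up 2.97% of all genes against control and 1.02% against Hypoxia, and no member lay above in either comparison, where 2.46% and 1.64% of genes did. The log2 difference was -0.59 ± 0.17 against control (adjusted p = 0.286 in edgeR's test and 0.0602 in DESeq2) and -0.55 ± 0.14 against Hypoxia (adjusted p = 0.999 in edgeR's test and 0.173 in DESeq2). Leaving out each animal in turn gave -0.68 to -0.43 against control and -0.61 to -0.47 against Hypoxia. Within the P4H animals the difference from control was -0.37 ± 0.17 and within the P6H animals -0.78 ± 0.24, neither of which passed (adjusted p = 0.385 and 0.794 in edgeR's test). Against the Hypoxia animals, all of them P6H, the P6H animals of the HIE group gave -0.56 ± 0.18.

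Atf4 was 118, 140, 132 and 144 CPM in the P14 controls, 104, 123, 91.1 and 105 CPM in HIE, and 160, 118, 141 and 125 CPM in Hypoxia. Only 1 HIE animal, at 123 CPM, reached the range of the other groups, and on total-count CPM none did. The share of all genes that separate on total-count CPM was not counted, so separations on that scale cannot be weighed against it. On that scale Xbp1 also separated HIE from Hypoxia, at 96.8 to 106 CPM against 110 to 123 CPM. Its log2 difference there was -0.20 ± 0.09 (unadjusted p = 0.054 in edgeR's test). The log2 difference of Atf4 was -0.34 ± 0.11 against control (adjusted p = 0.316 in edgeR's test) and -0.39 ± 0.13 against Hypoxia (adjusted p = 0.999). Within the P4H animals the difference of Atf4 from control was -0.15 ± 0.12 and within the P6H animals -0.53 ± 0.11. With the prefix as a covariate, which balances these 2 groups, edgeR's test called 2 of 20934 genes and no member, with Ddit3 at -0.57 ± 0.16 (adjusted p = 0.202) and Atf4 at -0.34 ± 0.11 (adjusted p = 0.229).

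Other levels differed between these groups too. Neuron markers summed to 408 to 735 CPM in the controls, 255 to 370 CPM in HIE and 329 to 506 CPM in Hypoxia, and all 12 were lower in HIE than in control, 6 of them called by DESeq2. The synaptic gene Snap25 was 23.9 to 60.3 CPM in the controls and 17.2 to 22.9 CPM in HIE. Microglia markers summed to 18999 to 25283 CPM in the controls and 21030 to 31241 CPM in HIE, and immediate early genes to 7994 to 10223 CPM, with 6527 to 12017 CPM in HIE and 8645 to 13930 CPM in Hypoxia. Of the 14 immediate early genes, 12 were below 0 in HIE against control (median log2 difference -0.17) and all 14 in HIE against Hypoxia (-0.32). All 10 oligodendrocyte markers were below 0 in HIE against control (median -0.68), with sums of 1146 to 4263 CPM in the controls, 665 to 2321 CPM in HIE and 960.1 to 2940.4 CPM in Hypoxia. Of 9 neutrophil and monocyte markers, 8 were above 0 in HIE against control (median 0.87), with sums of 98.6 to 117 CPM, 87.7 to 359 CPM and 81.2 to 241 CPM. All 10 choroid plexus markers were above 0 in HIE against Hypoxia (median 0.89) and against control (0.40). In HIE against control, all 10 endothelial markers (median 0.465) and all 16 microglia markers tested (0.19) were above 0. All 10 astrocyte markers were below 0 in that comparison (median -0.40), whereas 8 of them were above 0 against Hypoxia. The part of these levels in the Ddit3 and Atf4 differences was not tested.

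Trib3 was 0.304, 0.318, 0.341 and 0.410 CPM in the P14 controls, 1.11, 0.721, 0.300 and 0.237 CPM in HIE, and 0.197, 0.184, 0.512 and 0.162 CPM in Hypoxia. Both high HIE values were those of the P4H1 litter, with 48 and 51 counts, while the P6H12 animals were below every control. The log2 difference against control was 0.78 ± 0.50 in all, 1.49 ± 0.46 within the P4H animals and -0.46 ± 0.53 within the P6H animals (adjusted p = 0.693, 0.272 and 0.974 in edgeR's test), and DESeq2 gave no adjusted p. Sesn2 was 17.9, 27.1, 15.7 and 19.5 CPM in HIE and 14.9 to 19.1 CPM in the controls. Its highest value, again in P4H1, carried most of a log2 difference of 0.28 ± 0.17, which was 0.10 without that animal.

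None of the other members had an unadjusted p under 0.05 in edgeR's test for HIE against control on P14. Hspa5 had 584 to 724 CPM in HIE and 589 to 720 CPM in control (-0.03 ± 0.11), Xbp1 92.8 to 108 and 100 to 115 CPM (-0.06 ± 0.08), and Herpud1 75.7 to 100 and 76.2 to 104 CPM (-0.10 ± 0.12). For Asns the log2 difference was -0.30 ± 0.21, for Atf5 0.10 ± 0.18 and for Chac1 -0.27 ± 0.43. The groups overlapped for each of these genes. The estimates of Asns and Chac1 were near that of Atf4 but had wider SEs, so they do not show that the difference was small.

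For Hypoxia against control no member passed, none had an unadjusted p under 0.05, against 1996 of 20953 genes (9.53%), and none was called by DESeq2. Over all genes edgeR's test called 0.00955% and DESeq2 0.783%. No member separated the groups, where 2.18% of all genes lay above and 2.9% below. The log2 differences ran from -0.38 ± 0.43 for Trib3 and -0.30 ± 0.20 for Asns to 0.12 ± 0.08 for Xbp1 and 0.20 ± 0.51 for Chac1, and Hspa5 and Herpud1 were at -0.01 ± 0.12 and 0.00 ± 0.12. DESeq2 gave Chac1 and Trib3 no adjusted p in this comparison or in HIE against control.

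**Figure D5:**
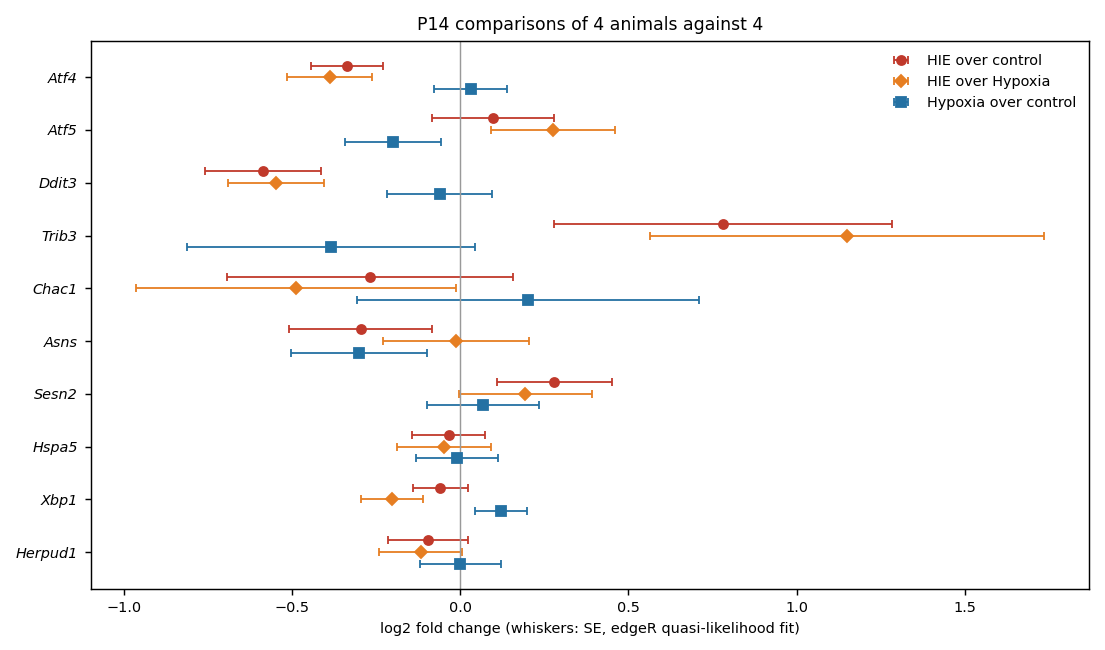
Log2 fold change (horizontal axis, SE as whiskers) of the 10 genes (vertical axis) in the 3 P14 comparisons of 4 animals against 4, which share animals. Ddit3 lies at -0.59 and -0.55 for HIE against control and Hypoxia and at -0.06 for Hypoxia against control; Trib3 has the widest errors together with Chac1.

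Across the 8 pathway lists on P14, none of the 101 genes tested passed in edgeR's test in any of the 3 comparisons. Unadjusted p-values under 0.05 in edgeR's test were found for 9 of the 101 in HIE against control, 6 in Hypoxia against control and 2 in HIE against Hypoxia. Over all genes tested the shares were 9.87%, 9.53% and 4.53%, and none of the 3 list counts exceeded its share. DESeq2 called 1 gene, Ppp1r15a, lower in HIE than in control (named after its values were seen), and none in the other comparisons. In HIE against control, 79 of the 101 log2 differences were above 0. The list medians were 0.16 for ER chaperones, 0.18 for ER entry and early secretion, 0.12 for ER-associated degradation, 0.10 for aminoacyl-tRNA synthetases, 0.08 for mitochondrial chaperones, 0.07 for stress sensors, 0.02 for amino acid supply and 0.01 for other ATF4 and CHOP program genes, beside 0.01 over all genes.

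The most abundant genes of these lists did not pass in HIE against control, and Atf3 was the farthest from 0. For the ER, Canx was at 0.16 ± 0.13, Hsp90b1 at 0.20 ± 0.11, Edem1 at 0.19 ± 0.15, Ssr3 at 0.14 ± 0.12 and Ssr1 at 0.18 ± 0.12. For amino acid use, Slc38a2 was at -0.04 ± 0.08, Slc3a2 at 0.15 ± 0.13, Eprs1 at 0.10 ± 0.09 and Nars1 at 0.07 ± 0.09. For stress signaling, Ppp1r15b was at 0.03 ± 0.07, Atf6 at 0.09 ± 0.11, Atf3 at -0.37 ± 0.28 and Cebpg at 0.01 ± 0.13, and the mitochondrial genes Hspa9 and Yme1l1 were at 0.08 ± 0.11 and 0.14 ± 0.10. In Hypoxia against control the same kind of genes ranged from -0.30 ± 0.19 for Atf3 to 0.19 ± 0.09 for Ssr3, and in HIE against Hypoxia Slc38a2 was at -0.10 ± 0.13 and Hsp90b1 at 0.06 ± 0.14.

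Whether the HIE effect differed between the days was tested with an interaction term over 16 animals. No member passed in edgeR's test, which called 1 of 24693 genes (0.00405%), 4 members and 3434 genes in all (13.9%) had an unadjusted p under 0.05, and DESeq2 called no member and 2.72% of all genes. Trib3 had the widest gap, lower in HIE on P7 and higher on P14, with a difference between the effects of -1.73 ± 0.61 (adjusted p = 0.239 in edgeR's test). Herpud1 differed by 0.83 ± 0.30 (adjusted p = 0.246), Atf5 by -0.67 ± 0.26 (adjusted p = 0.277) and Xbp1 by 0.54 ± 0.22 (adjusted p = 0.304). With P6H63 as the only P7 controls, 7 members passed in edgeR's test, in a fit that called 29.6% of all genes, and with P6H55 as the only P7 controls neither a member nor any other gene passed (0%, with Herpud1 at 0.43 ± 0.17).

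The P4H and P6H animals of P14 were compared with treatment in the fit, 4 against 4. No member passed in edgeR's test, which called 250 of 20934 genes (1.19%), and DESeq2 called no member and 13.7% of all genes. An unadjusted p under 0.05 was found for 5652 genes in all and for Atf5 alone of the members. Atf5 was higher in P4H by 0.34 ± 0.14 (adjusted p = 0.174 in edgeR's test), and Trib3 was at 0.88 ± 0.45. Of the pathway lists, all 15 ER chaperones and all 12 genes of ER entry and early secretion were above 0, with medians of 0.24 and 0.21 beside 0.01 over all genes. DESeq2 called 13 of the 101 pathway genes higher in P4H and 1 lower, among them Phgdh, Psat1 and Psph of serine synthesis (named after their values were seen). Scaling by library size alone moved the median over all genes to -0.11 and turned Atf4, Herpud1, Hspa5, Sesn2 and Xbp1 below 0. With TMM scaling, edgeR's test called 1 of the 101 pathway genes, Psph, higher in P4H (0.75 ± 0.14, adjusted p = 0.04998). All 10 astrocyte and all 10 endothelial markers were also above 0, with 5 and 6 called by DESeq2, and their part in these differences was not tested.

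Females and males of P14 were compared over 12 animals with the group in the fit. No member passed or had an unadjusted p under 0.05 in edgeR's test, which called 0.0507% of genes and gave 305 of 21678 an unadjusted p under 0.05, and DESeq2 called no member and 0.0646% of genes. The member with the lowest p was Chac1, at -0.56 ± 0.38 for females over males, and the other 9 lay between -0.10 and 0.13.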

How the data were processed

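RNA from CD11b+ cells, isolated with magnetic beads from the brains of 20 mice, was sequenced as 22 stranded libraries, and 2 HIE animals of P14 had 2 libraries each, which were summed. The authors deposited expected counts per gene, 1 table per day. The submitters' processing notes name FastQC, STAR, RSEM and GRCm39. Counts were rounded to whole numbers (84.2 to 88.0% of values, zeros included, were whole as deposited), and 56691 genes found in both tables were kept. CPM was computed on library sizes scaled by TMM within each day, and on total counts as an alternative added after the data were seen.

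Comparisons used edgeR 4.0.16 in R 4.3.3 with TMM scaling, filterByExpr, the quasi-likelihood test and Benjamini-Hochberg adjustment at 0.05. DESeq2 1.42.0 was the alternative tool. In each list and comparison, up to 2 genes with the largest and 2 with the smallest log2 fold change past the threshold of edgeR's test were named, and where none passed, the 2 with the highest mean CPM. One gene named by this rule is not reported here. The members and lists were chosen with earlier results of these data known. Replicates were separate animals. The scripts were tested on simulated data. Other alternatives were other scalings and filters, each animal or control litter left out (added after the data were seen for the pathway lists), name prefix, males alone and a microglia covariate. No columns of per-sample values were left unused.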

Additional observations from a re-analysis of the deposited data

Results flagged for a closer look

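In 4 of the 50 groups of 4 animals (10 genes in 5 groups), 1 animal lay far from the other 3, with its gap to the nearest animal divided by the whole range of the group above the critical value of Dixon's test for 4 animals. Chance gives about 1 such call in 20 groups. For Atf5, control replicate 3 of P14 was at 9.79 CPM and the others at 7.56 to 7.76 CPM, a gap of 0.909 of the range. For Trib3, Hypoxia replicate 3 of P14 was at 0.512 CPM and the others at 0.162 to 0.197 CPM, a gap of 0.899 of the range. For Chac1, control replicate 4 of P14 was at 0.662 CPM and the others at 0.261 to 0.304 CPM, a gap of 0.891 of the range. For Herpud1, HIE replicate 2 of P7 was at 113 CPM and the others at 93.2 to 96.1 CPM, a gap of 0.850 of the range.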

How the results depend on the processing

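Of 1396 alternative log2 differences of the members, 1293 kept their direction and side of the threshold, 21 passed it newly and 82 changed sign. On P7 the number of members passing was 0 by edgeR's test, 2 with DESeq2, 0 to 2 with 1 animal left out (2 without control replicate 3) and 10 without control litter P6H55. For the difference between days it was 7 without that litter. Over all genes, the calls ranged over the alternatives from 10 to 13904 on P7 (15 in the main test), 0 to 490 for P14 HIE against control (1), 0 to 164 for Hypoxia against control (2), 0 to 21 for HIE against Hypoxia (2), 0 to 7771 for the difference between days (1), 0 to 3255 for P4H against P6H (250) and 7 to 87 for sex (11). The alternatives for prefix and sex were chosen after seeing the data. The cause of the changes below was not tested.

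Log2 differences changed sign as follows. On P7, library size alone gave -0.063 for Atf4 and -0.014 for Ddit3, the microglia covariate 0.12 for Asns, -0.35 for Atf4 and -0.47 for Ddit3, and leaving out litter P6H63 0.07, -0.26 and -0.33. For the difference between days, Asns was 0.36 without P6H63 and Sesn2 0.14 without P6H55. For HIE against control, P4H animals alone gave 0.14 for Chac1, 0.11 for Herpud1, 0.11 for Hspa5 and 0.005 for Xbp1, and P6H animals alone -0.078 for Atf5 and -0.46 for Trib3. For Hypoxia against control, P6H animals alone gave -0.057 for Atf4 and -0.088 for Chac1, and Hspa5 was 0.001 with DESeq2 and with its size factors. For HIE against Hypoxia, Asns was 0.008 with 3 groups in 1 fit and 0.005 without a filter. For P4H against P6H, a filter at 1 CPM gave -0.017 for Atf4 and -0.005 for Herpud1, and library size alone -0.11 for Atf4, -0.093 for Herpud1, -0.065 for Hspa5, -0.008 for Sesn2 and -0.078 for Xbp1. For sex, library size alone gave -0.008 for Atf4.

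With each animal left out in turn, these ranges crossed 0. On P7, Atf4 ran from -0.042 to 0.29 and Ddit3 from -0.066 to 0.46. For HIE against control, Chac1 ran from -0.43 to 0.14 and Hspa5 from -0.10 to 0.019. For HIE against Hypoxia, Asns ran from -0.11 to 0.11 and Hspa5 from -0.15 to 0.006. For Hypoxia against control, Atf4 ran from -0.056 to 0.092, Chac1 from -0.12 to 0.61, Ddit3 from -0.15 to 0.098, Herpud1 from -0.097 to 0.066, Hspa5 from -0.053 to 0.084 and Sesn2 from -0.062 to 0.17. For the difference between days, Asns ran from -0.24 to 0.044 and Sesn2 from -0.15 to 0.15. For P4H against P6H, Atf4 ran from -0.075 to 0.088, Chac1 from -0.50 to 0.14, Herpud1 from -0.063 to 0.13, Hspa5 from -0.018 to 0.13, Sesn2 from -0.072 to 0.23 and Xbp1 from -0.006 to 0.099. For sex, Atf4 ran from -0.051 to 0.076, Ddit3 from -0.14 to 0.036, Sesn2 from -0.17 to 0.064 and Trib3 from -0.23 to 0.55.

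No paired analysis was possible because the replicate numbers follow the order of the samples and pair no animals across groups. The name prefix, which balances the P14 HIE and control groups, was fitted as a covariate instead and changed no member's call. Depth limits Trib3 and Chac1, which had as few as 6 and 5 counts per animal on P14.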
